A study of Mus musculus with 6 samples.

Results

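The genes described here are the nuclear genes of the mitochondrial respiratory chain and ATP synthase, in whole lungs of mice kept in hypoxia with or without depletion of classical dendritic cells. They were chosen by symbol (Ndufa, Ndufb, Ndufc, Ndufs and Ndufv; Sdha to Sdhd; Uqcr; Cox4 to Cox8; Atp5), leaving out the heart and muscle isoform Cox6a2 and keeping genes with a read in at least 3 of the 6 libraries. The symbols matched 93 of the 25965 listed genes and 91 were kept. Cox6a2 was left out by the rule, and Cox8c had 1 read in 1 library. Of the 91 genes, 36 encode subunits of complex I, 4 of complex II, 8 of complex III, 18 of complex IV and 15 of complex V, which makes 81 subunits. A further 8 encode assembly factors. The last 2 carry a matching symbol only: Atp5l-ps1 is a pseudogene, and Cox4nb, now named Emc8, is not a respiratory chain gene but the neighbour of Cox4i1.

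The samples were 6 lungs, numbered within each group by their titles. Each was taken as a separate mouse, which the titles do not state. All 6 mice were ZBTB46 DTR chimeras, in which cells with activity of Zbtb46 (a factor that marks classical dendritic cells) carry the diphtheria toxin receptor, and all 6 were exposed to hypoxia with 10% inspired oxygen for 7 days. Diphtheria toxin (DT) was given to 3 mice, first 40 ng per g, 1 day ahead of the hypoxia, then 8 ng per g at intervals of 3 days, for a total of 3 doses. Phosphate-buffered saline (PBS) was given to the other 3. Controls therefore carried the receptor and breathed the same air, and no receptor-free mouse given toxin was part of the comparison, so toxin and depletion cannot be told apart. In a chimera the receptor sits in cells that descend from the donor marrow, while the lung tissue itself is the host's. The labels give no strain, age, sex or time since transplantation. The study's stated aim was to find processes tied to protection from hypoxia-induced pulmonary hypertension in these mice. For the genes described here, the question is whether the respiratory chain transcripts of the hypoxic lung differ when dendritic cells are depleted.

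The respiratory chain sits in the inner mitochondrial membrane. Complexes I and II pass electrons from NADH and succinate to ubiquinone, complex III passes them on to cytochrome c, and complex IV hands them to oxygen. Complexes I, III and IV pump protons, and complex V, the ATP synthase, uses the gradient to make ATP. Most subunits are encoded in the nucleus and a minority in mitochondrial DNA. Complex IV has isoforms that differ by tissue or oxygen supply: Cox7a1, Cox8b and Cox6a2 are heart and muscle forms, Cox4i2 is a lung and smooth muscle form used in oxygen sensing, and Ndufa4l2 is induced by hypoxia-inducible factor in many cells and replaces Ndufa4.

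Of the 90 tested genes, Cox7a1 and Cox8b of complex IV had the lowest log2 fold changes of DT over PBS and the largest standard errors. The sequences upstream of both and of their general counterparts, Cox7a2 and Cox8a, are printed here. Each is the 250 bases before the RefSeq start on GRCm38.p6, read 5′ to 3′ on the gene's strand, with every CG dinucleotide in capitals. The heart and muscle form Cox7a1 (chr7:30183921-30184170, plus strand) is followed by its general counterpart Cox7a2 (chr9:79759854-79760103, minus strand), then by Cox8b (chr7:140900447-140900696, minus strand) and its general counterpart Cox8a (chr19:7217617-7217866, minus strand).
Cox7a1: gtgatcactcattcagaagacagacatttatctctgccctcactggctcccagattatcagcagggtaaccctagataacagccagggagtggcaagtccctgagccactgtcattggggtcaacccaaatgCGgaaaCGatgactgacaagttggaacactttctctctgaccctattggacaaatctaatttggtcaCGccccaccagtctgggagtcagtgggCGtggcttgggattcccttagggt
Cox7a2: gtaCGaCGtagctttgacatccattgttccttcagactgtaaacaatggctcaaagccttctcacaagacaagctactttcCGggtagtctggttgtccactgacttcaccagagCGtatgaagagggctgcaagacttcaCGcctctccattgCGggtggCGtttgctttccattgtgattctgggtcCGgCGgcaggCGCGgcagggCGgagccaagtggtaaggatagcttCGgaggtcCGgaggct
Cox8b: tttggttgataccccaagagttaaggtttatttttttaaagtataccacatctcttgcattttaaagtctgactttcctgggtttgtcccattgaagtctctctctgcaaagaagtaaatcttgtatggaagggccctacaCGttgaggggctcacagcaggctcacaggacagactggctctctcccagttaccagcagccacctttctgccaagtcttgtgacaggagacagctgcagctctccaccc
Cox8a: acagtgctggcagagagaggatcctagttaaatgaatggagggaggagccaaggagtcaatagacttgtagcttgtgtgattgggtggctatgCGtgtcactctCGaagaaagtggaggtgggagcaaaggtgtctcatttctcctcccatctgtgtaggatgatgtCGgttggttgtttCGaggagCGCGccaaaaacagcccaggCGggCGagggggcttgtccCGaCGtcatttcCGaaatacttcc
Cox7a1 held 4 CG dinucleotides against 14 in Cox7a2, and Cox8b held 1 against 11 in Cox8a. RefSeq gave a window for 76 of the 91 genes, among them 68 of the 81 subunits. Over the 64 subunits other than restricted isoforms the median was 14.5 CG dinucleotides, and 1 of the 64 held fewer than 5. Over the 4 restricted isoforms with a window (Cox6b2, Cox7a1, Cox7b2 and Cox8b) the median was 6.0 and 2 held fewer than 5. The oxygen-linked Cox4i2 and Ndufa4l2 had no window. Over 27025 mouse genes the median was also 6.0, and 42.4% held fewer than 5.

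Nuclear respiratory factor 1 (NRF1) is a known activator of respiratory chain genes, and its binding sequence (GCGCA, any base, then GCGC) was searched on both strands of the same windows. It was present in 13 of the 64 subunits other than restricted isoforms (20.3%), in none of the 4 restricted isoforms and in 4.23% of all 27025 genes. The 4 windows are too few to compare with the other shares. Sdha, the flavoprotein of succinate dehydrogenase (chr13:74350241-74350490, minus strand), held 3 matches and Cox6a1, the general counterpart of Cox6a2 (chr5:115348959-115349208, minus strand), held 2. Both are printed with the matches in capitals, as examples of windows with several matches. Most of the 64 windows held none, and a link between matches and the steadiness of a level was not tested.
Sdha: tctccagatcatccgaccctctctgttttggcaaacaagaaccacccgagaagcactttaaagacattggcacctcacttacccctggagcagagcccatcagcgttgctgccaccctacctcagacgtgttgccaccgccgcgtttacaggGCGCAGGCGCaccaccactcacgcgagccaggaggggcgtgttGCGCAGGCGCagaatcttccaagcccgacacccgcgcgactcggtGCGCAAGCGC
Cox6a1: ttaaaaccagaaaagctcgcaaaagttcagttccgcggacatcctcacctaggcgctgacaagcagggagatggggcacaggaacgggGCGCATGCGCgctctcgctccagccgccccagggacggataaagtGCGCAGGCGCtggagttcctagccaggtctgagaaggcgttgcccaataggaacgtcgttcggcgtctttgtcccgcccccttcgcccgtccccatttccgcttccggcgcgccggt
The core CCGGAAG of ETS-family factors, also on both strands, was present in 12 of the 64 subunits (18.8%) against 7.83% of all genes. The hypoxia response core ACGTG was present in 13 of the 64 (20.3%) against 18.5% of all genes, and in 4 of the 8 assembly factors. The assembly factor Atp5sl, listed by RefSeq as Dmac2 (chr7:25619164-25619413, plus strand), had the lowest log2 fold change of the assembly factors and is printed with the ACGTG core in capitals, which reads on both strands within the letters CACGTG.
Atp5sl: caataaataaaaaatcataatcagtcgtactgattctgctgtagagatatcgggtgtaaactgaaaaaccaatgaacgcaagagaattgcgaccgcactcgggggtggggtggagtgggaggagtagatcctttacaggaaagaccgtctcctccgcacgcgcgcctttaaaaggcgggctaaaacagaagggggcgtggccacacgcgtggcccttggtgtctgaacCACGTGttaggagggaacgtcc
These matches describe the letters of the windows, and binding by a factor was not measured. The searched sequences all hold CG, and the 64 windows held more CG than those of all genes (median 14.5 against 6.0). The part of CG content in the shares was not tested.

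Depth was 16766386 to 19084657 reads per library, and 69.82% to 73.13% of them fell in listed genes. Levels are reads-per-million values (RPM). Where a gene had no read, its level could be as high as 0.157 to 0.179 RPM (3 reads), from counting error alone. Of the 91 genes, 90 passed the filter on low values and were tested among 16708 genes with limma. All 4 lung epithelial markers were detected in every library and summed to 99.2 to 112 RPM, and the 12 cardiac muscle markers summed to 227 to 463 RPM. All 5 dendritic cell markers had lower means with DT and none passed the test. Zbtb46 had 108, 99.8 and 89.1 RPM in PBS and 87.2, 82.0 and 84.1 RPM in DT mice, and was highest in PBS mouse 1. In the other markers PBS mouse 1 stood near the DT mice. Xcr1, for example, had 4.55, 17.3 and 20.5 RPM in PBS mice 1 to 3 and 6.5, 3.61 and 0.272 RPM in DT mice 1 to 3. Values without PBS mouse 1 are therefore given for the medians of the complexes and for the genes with the lowest values. Red cell precursor genes were higher with DT, 4 of 5 past the threshold, and their sum was 36.4 to 65.8 RPM in PBS and 158 to 211 RPM in DT mice. In whole tissue, fewer cells of a type and less RNA per cell cannot be told apart. All 13 protein genes of mitochondrial DNA were listed with 0 reads in every library, so the mitochondrially encoded subunits are not described here.

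No respiratory chain gene passed the test. At an adjusted p of 0.05 the call was made for 0 of the 90 tested genes, against 0.281% of all 16708 genes, or 47 genes (0.275% higher and 0.00599% lower with DT). At an unadjusted p of 0.05 it was 1 of 90 (1.11%), by limma and by limma-voom on the recovered reads alike, against 9.03% of all genes. The median log2 fold change of DT over PBS was 0.00 over the 90 genes and 0.00 over all genes tested. Over the 80 tested subunits it was 0.01, with 47 above zero and 33 below. Groups of mice did not overlap for 6 of the 90 genes (6.67%), against 14.4% of all genes. Lower in every DT mouse were Ndufb2, Ndufs4, Atp5k, Atp5sl and Ndufaf4 (5 genes, background 6.79%), and Cox6b1 was higher in every DT mouse (background 7.65%).

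The differences were also small in size. The median size of the log2 fold change, ignoring sign, was 0.0385 over the 90 genes and 0.0695 over all genes tested. Other housekeeping lists were alike, so small differences were not particular to the respiratory chain. The median size was 0.0305 over mitochondrial ribosomal protein genes and 0.0533 over cytosolic ones. For citric acid cycle and pyruvate dehydrogenase genes it was 0.0236. A size under 0.1 was seen for 75 of the 90 (83.3%) and for 62.6% of all genes. The 95% interval lay within 0.3 of zero on either side for 69 of the 90, against 53.7% of all genes, and within 0.5 for 87. The 3 genes with wider intervals were Cox7a1, Cox8b and the pseudogene. With the restricted isoforms set aside, the 75 remaining subunits ranged from -0.16 to 0.11. Levels differed between the lists too: the median was 15.2 RPM over the 90 genes and 28.5 RPM over all genes, and the part of level in the size of the difference was not tested.

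**Figure D1:**
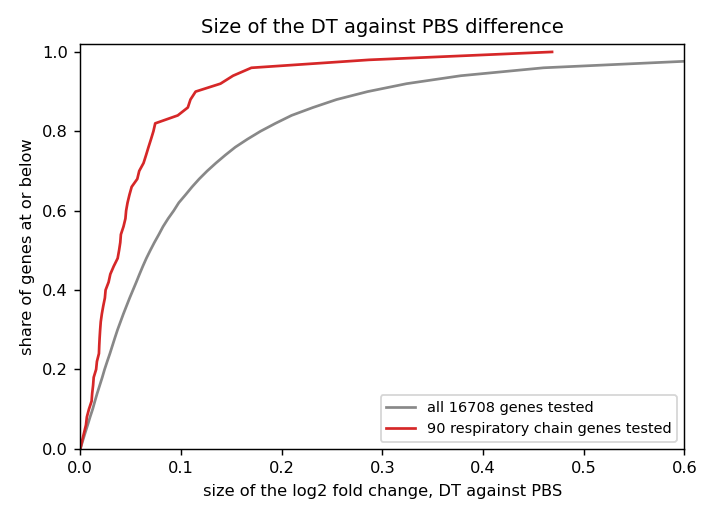
Share of genes (y axis) whose log2 fold change between DT and PBS, sign ignored, is at or below the size on the x axis, for the 90 tested respiratory chain genes (red) and all 16708 tested genes (grey). The red curve lies left of the grey over the range shown, with medians of 0.0385 and 0.0695.

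**Figure D2:**
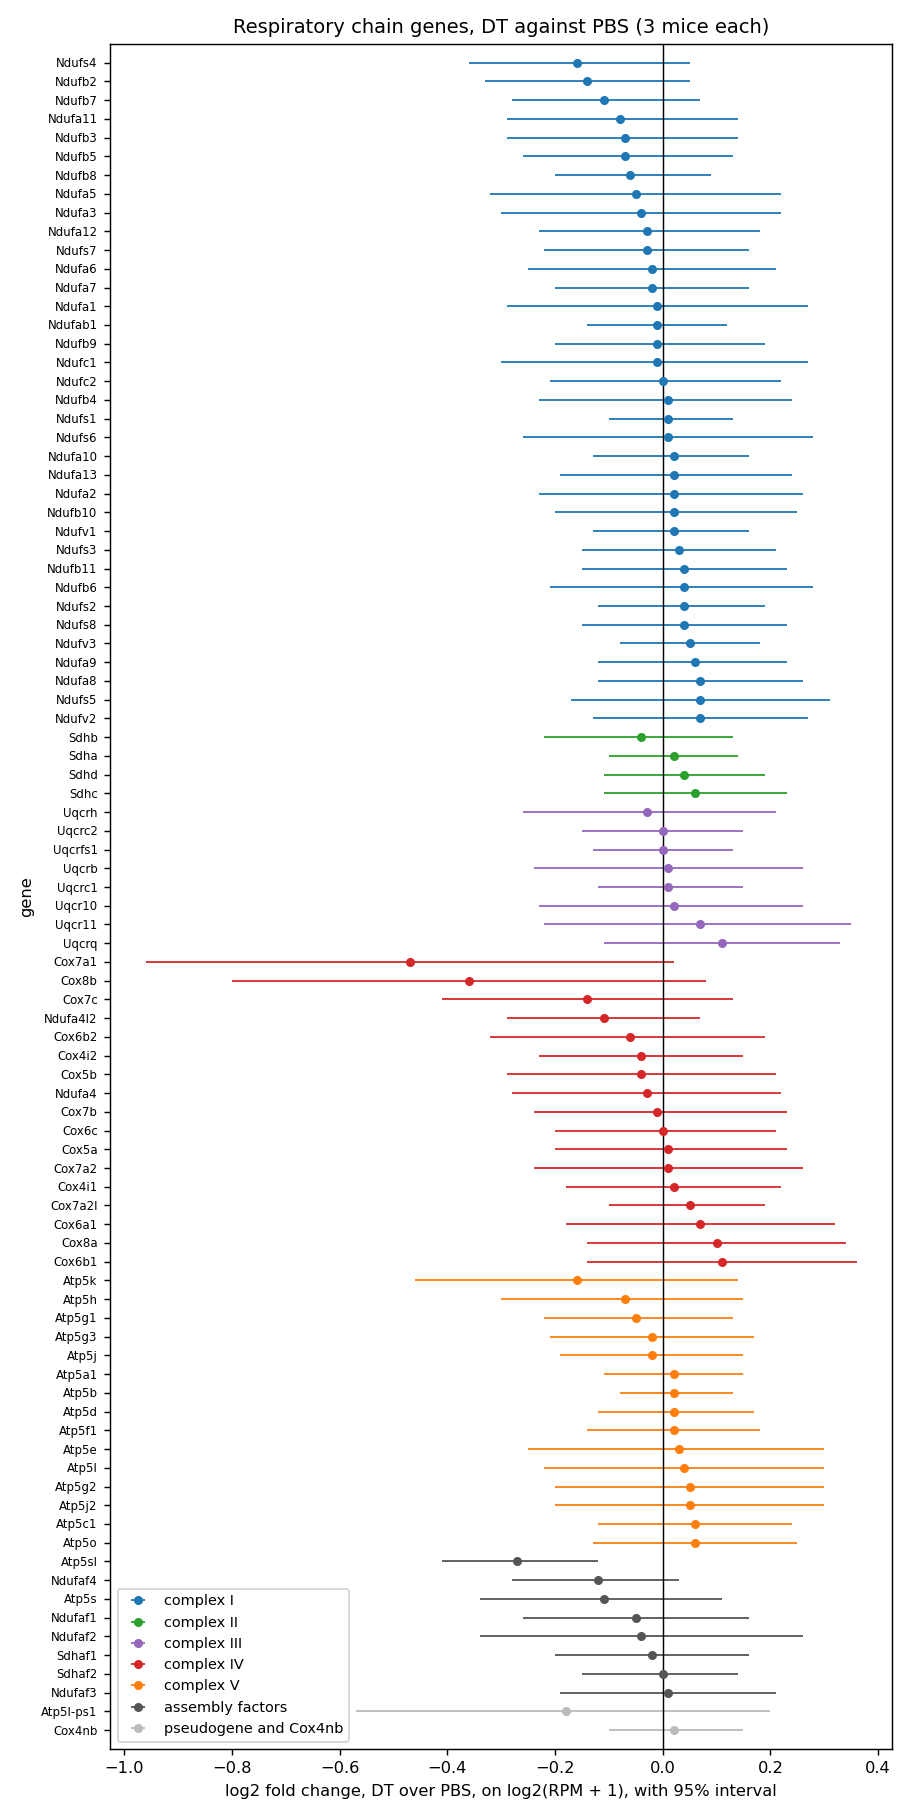
Log2 fold change of DT over PBS with its 95% interval (x axis) for each of the 90 tested genes (y axis), coloured by complex and ordered by value within it. All intervals but that of Atp5sl include zero, and Cox7a1 and Cox8b have the lowest values and the widest intervals.

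Summed by complex, the levels were nearly the same in both groups. Complex I had 638, 600 and 602 RPM in PBS mice 1 to 3 and 629, 600 and 604 RPM in DT mice 1 to 3. The complex V sum was 341, 324 and 320 RPM in PBS and 344, 323 and 325 RPM in DT mice. In both complexes mouse 1 of each group was the highest and the groups overlapped. Complex II had 142, 138 and 137 RPM in PBS and 151, 137 and 136 RPM in DT mice. For complex III the sums were 150, 140 and 142 RPM in PBS and 153, 143 and 141 RPM in DT mice. The 17 tested genes of complex IV summed to 220, 205 and 201 RPM in PBS and 212, 202 and 202 RPM in DT mice. Here too the groups overlapped and mouse 1 was the highest in each. All 80 tested subunits together came to 1433 ± 50.1 RPM in PBS and 1434 ± 46.8 RPM in DT (SD, n = 3). Assembly factors summed to 193, 176 and 176 RPM in PBS and 173, 167 and 172 RPM in DT mice. That was the only sum of the 6 whose groups did not overlap, and this rested on Atp5sl: the other 7 assembly factors summed to 154, 139 and 142 RPM in PBS and 142, 136 and 142 RPM in DT mice, groups that overlapped.

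**Figure D3:**
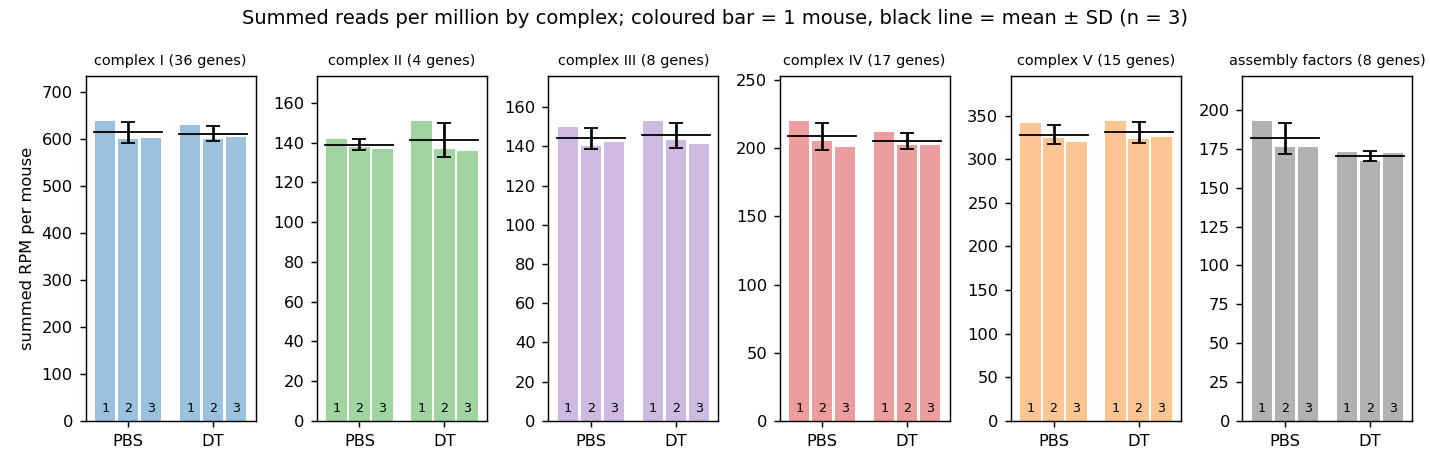
Summed RPM (y axis, from 0) of the tested genes of each complex and of the assembly factors in each mouse (coloured bars, mouse 1 to 3 in PBS and DT), with the group mean and SD in black (n = 3). The sums of complexes I to V overlap between the groups, while the assembly factors, with Atp5sl among them, lie at 176 to 193 RPM in PBS and 167 to 173 RPM in DT mice.

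The high mouse in each group was shared across the chain. PBS mouse 1 had the highest level of the 6 for 44 of the 90 genes and DT mouse 1 for 38, so that these mice held the maximum for 82 of 90 (91.1%), against 61.2% of all genes tested. Scaling factors by median of ratios were also highest in these libraries, 1.025 for PBS mouse 1 and 1.024 for DT mouse 1. The other libraries had 0.9811 to 0.9995. Levels here are RPM without that scaling, and the part of library scale in the pattern was not tested. The same mice were high in other housekeeping lists. Cytosolic ribosomal protein genes, 80 of them, summed to 1472, 1356 and 1341 RPM in PBS and 1464, 1356 and 1376 RPM in DT mice. Mitochondrial ribosomal protein genes, 78 of them, summed to 1781, 1615 and 1624 RPM in PBS and 1671, 1595 and 1628 RPM in DT mice. In PBS mouse 1 the dendritic cell markers other than Zbtb46 were low. Without this mouse the median log2 fold change was 0.03 for complex I, 0.04 for complexes II and III, 0.02 for complex IV and 0.05 for complex V. No respiratory chain gene was called without it, while 66 of all genes were. The log2 fold changes of single genes without PBS mouse 1 were -0.44 for Cox7a1, -0.35 for Cox8b, -0.24 for Atp5sl, -0.16 for Ndufb2, -0.13 for Ndufs4 and -0.07 for Ndufaf4. For Cox7c and Ndufa4l2 the value was -0.04 without it, against -0.14 and -0.11 with it, and for Cox4i2 it was 0.00.

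Complex I is built from conserved core subunits that carry the redox centres and from accessory subunits around them. The 7 nuclear core genes had a median log2 fold change of 0.03 with 6 above zero, and the 29 accessory genes one of -0.01 with 13 above zero. Ndufs1, the largest iron-sulphur subunit, had 38.6, 38.9 and 39.1 RPM in PBS and 40.3, 39.3 and 38.0 RPM in DT mice. Its groups overlapped, with a log2 fold change of 0.01 ± 0.05 (SE) and an adjusted p of 0.968 by limma. Ndufv1, which binds NADH and flavin, had 33.3, 31.8 and 31.7 RPM in PBS and 34.8, 32.2 and 31.1 RPM in DT mice (0.02 ± 0.06). Ndufv2, its iron-sulphur partner, had 13.9, 13.0 and 13.1 RPM in PBS and 14.4, 13.6 and 14.1 RPM in DT mice (0.07 ± 0.09). In both genes the groups overlapped.

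The lowest values of complex I were in accessory subunits. Ndufs4 (ENSMUSG00000021764, mm10 chromosome 13, 114287795 to 114388094), a late-joining subunit whose loss in mice causes encephalopathy, had 15.8, 14.7 and 15.2 RPM in PBS and 14.6, 13.3 and 12.9 RPM in DT mice. Every DT mouse lay below every PBS mouse. Its log2 fold change was -0.16 ± 0.09, with a 95% interval of -0.36 to 0.05 and an adjusted p of 0.675 by limma. Ndufb2, a small membrane-arm subunit, had 19.9, 21.3 and 19.6 RPM in PBS and 18.5, 16.9 and 19.3 RPM in DT mice. Again no DT mouse reached the PBS range, and the value of -0.14 ± 0.08 did not pass (adjusted p = 0.674, limma). At the other end stood Ndufa8 with 15, 15.5 and 14.7 RPM in PBS and 16.6, 15.1 and 15.9 RPM in DT mice (0.07 ± 0.08). Ndufc2 and Ndufb11, both of the membrane arm, had the most RPM per kilobase of exon among complex I genes, 19.9 and 18.9. Their log2 fold changes were 0.00 ± 0.09 and 0.04 ± 0.08.

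Complex II, succinate dehydrogenase, also belongs to the citric acid cycle and is encoded wholly in the nucleus. Sdha had 62.7, 61.5 and 62.5 RPM in PBS and 67.5, 62.1 and 60.3 RPM in DT mice. DT mice 1 and 3 were the highest and the lowest of the 6, and the log2 fold change was 0.02 ± 0.05. Sdhb, the iron-sulphur subunit, had 21.9, 21.1 and 20.8 RPM in PBS and 21.8, 19.5 and 20.6 RPM in DT mice (-0.04 ± 0.07). The membrane anchors Sdhc and Sdhd had 0.06 ± 0.07 and 0.04 ± 0.07. Sdhd had the highest level per length of all 91 genes, 26.3 RPM per kilobase of exon. In complex III, 7 of 8 genes were above zero. The Rieske iron-sulphur protein gene Uqcrfs1 had 31.8, 31.2 and 30.8 RPM in PBS and 32.3, 30.6 and 30.8 RPM in DT mice, groups that overlapped, at 0.00 ± 0.06. Uqcrq had the highest value of the complex, 0.11 ± 0.10, from 11, 10.4 and 10.1 RPM in PBS and 11.9, 10.9 and 11.4 RPM in DT mice. DT mouse 2 lay just under PBS mouse 1. The core proteins Uqcrc1 and Uqcrc2 had 0.01 ± 0.06 and 0.00 ± 0.06, and the hinge protein gene Uqcrh had -0.03 ± 0.10.

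Complex IV holds the genes with the lowest log2 fold changes and the largest standard errors, Cox7a1 and Cox8b. Its 12 general subunits had a median log2 fold change of 0.01 with 8 above zero, and its 5 tested restricted isoforms had one of -0.11 with none above zero. Cox7b2, a sixth restricted isoform known from testis, had 1, 0 and 3 reads in PBS and 5, 0 and 0 reads in DT mice. It entered the gene set with the minimum of 3 libraries and was not tested. Among the general subunits, Cox4i1 had 18.3, 17.1 and 17.2 RPM in PBS and 19.1, 16.7 and 17.6 RPM in DT mice (0.02 ± 0.09). Cox5a, which with Cox4i1 starts the assembly around the catalytic core, had 13.3, 12.4 and 12.4 RPM in PBS and 13.5, 12.6 and 12.3 RPM in DT mice (0.01 ± 0.09). Both genes had mouse 1 of each group on top, and the groups overlapped. Cox6b1 (mm10 chromosome 7, 30616974 to 30626151), which faces the intermembrane space, had 6.88, 7.03 and 6.65 RPM in PBS and 7.75, 7.49 and 7.23 RPM in DT mice. It was the only gene with every DT mouse above every PBS mouse, and its 0.11 ± 0.11 had an adjusted p of 0.823 by limma. Cox7c had the lowest value of the general subunits, -0.14 ± 0.12, with PBS mouse 1 at 13.7 RPM and the other 5 mice between 10.4 and 11.5 RPM.

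The heart and muscle isoforms had the lowest log2 fold changes of the 90 genes, and the toxin group was split. Cox7a1 (ENSMUSG00000074218, mm10 chromosome 7, 30184171 to 30186028) had 2.77, 2.40 and 2.72 RPM in PBS and 1.07, 2.60 and 1.41 RPM in DT mice. DT mice 1 and 3 were low and DT mouse 2 lay within the PBS range. The log2 fold change was -0.47 ± 0.21 with a 95% interval of -0.96 to 0.02 and an adjusted p of 0.562 by limma. Cox8b (ENSMUSG00000025488, mm10 chromosome 7, 140898943 to 140900446) had 3.27, 3.20 and 3.14 RPM in PBS and 1.79, 3.35 and 1.90 RPM in DT mice. The same mice were low, DT mouse 2 was the highest of all 6, and the value was -0.36 ± 0.19 (95% interval -0.80 to 0.08, adjusted p = 0.635, limma). Without DT mouse 2 the values were -0.70 for Cox7a1 and -0.56 for Cox8b, with adjusted p of 0.176 and 0.247 by limma. Without DT mouse 1 they were -0.30 and -0.24, and without DT mouse 3 that of Cox8b was -0.27. The general counterparts did not share this split: Cox7a2 had 8.29, 8.02 and 7.34 RPM and Cox8a 11.6, 9.93 and 10.5 RPM in DT mice 1 to 3.

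Most cardiac muscle genes showed the same split between mice. In mice, cardiac muscle also surrounds the large pulmonary veins. Of the 12 cardiac markers, all were tested, 11 were below zero, none passed and the median log2 fold change was -0.60. Their sum was 382 to 445 RPM in PBS mice and 227, 463 and 232 RPM in DT mice 1 to 3. Mybpc3, cardiac myosin-binding protein C, had 28.8, 32.8 and 44.7 RPM in PBS and 7.22, 37.1 and 8.27 RPM in DT mice. Actc1 did not share the split, with 31.3, 30.2 and 27.8 RPM in PBS and 31.9, 29.8 and 29.9 RPM in DT mice. None of the 12 was at zero in any library, and Nppa was lowest with 0.0544 RPM in DT mouse 3. The 5 tested fat markers were also all below zero. Their sum was 39.4, 82.8 and 65.7 RPM in PBS mice 1 to 3 and 37.2, 72.6 and 28.5 RPM in DT mice 1 to 3. PBS mouse 1 was thus low in fat markers, while Cox7a1 and Cox8b were not low in that mouse. Ucp1, which had at most 0.266 RPM, was not tested and is not in this sum. The 3 tested skeletal muscle markers were all below zero. They summed to 30.6, 26.8 and 32.9 RPM in PBS and 10.2, 30.1 and 11.1 RPM in DT mice. Ckm and Tnnt3 had the same split, and Acta1 did not. Acta1 had 1.01, 0.425 and 0.381 RPM in DT mice 1 to 3, against 0.799 to 1.05 RPM in PBS mice. Ckm, the muscle creatine kinase also used by the heart, had 26, 23 and 28.2 RPM in PBS and 7.28, 26.3 and 8.54 RPM in DT mice. Myh4 was not tested, with 0.0555, 0.107 and 0.0524 RPM in PBS and no read in any DT mouse. Its PBS levels lay below the 0.157 RPM that a gene with no read could have. The part of cardiac, skeletal muscle or fat tissue in the isoform values was not tested.

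**Figure D4:**
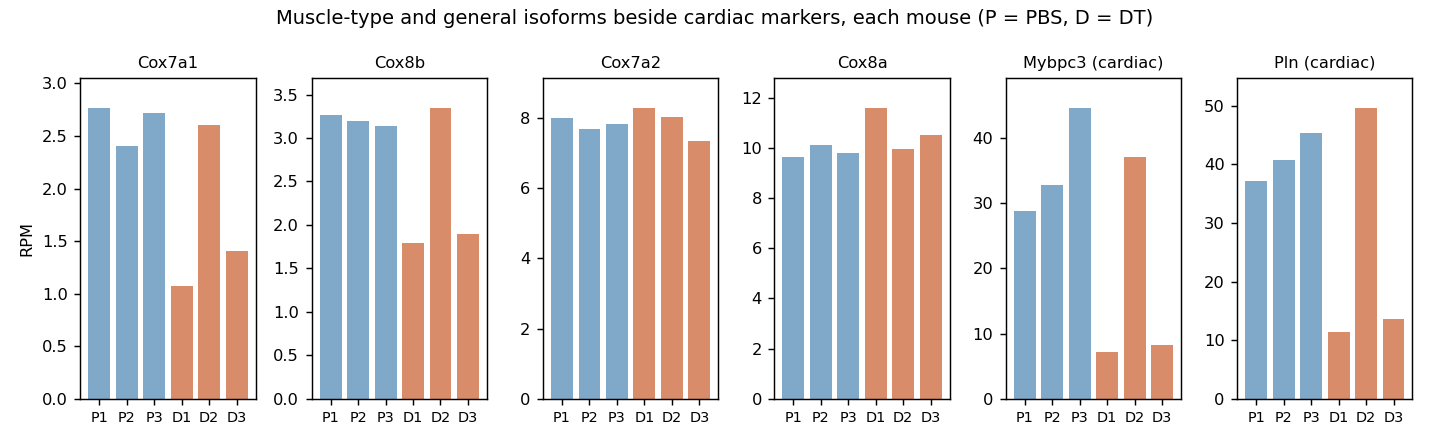
Level in RPM (y axis, from 0, each panel with its own scale) in each of the 6 mice (P1 to P3 PBS, D1 to D3 DT) of the heart and muscle isoforms Cox7a1 and Cox8b, their general counterparts Cox7a2 and Cox8a, and the cardiac genes Mybpc3 and Pln (phospholamban). Cox7a1, Cox8b and both cardiac genes are low in DT mice 1 and 3 and not in DT mouse 2, and the general isoforms are not.

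The oxygen-linked isoforms were at clear levels and close between the groups. Cox4i2 had 19.0, 17.3 and 17.4 RPM in PBS and 18.3, 16.7 and 17.3 RPM in DT mice. Ndufa4l2 had 30.7, 26.5 and 26.1 RPM in PBS and 26.1, 24.7 and 26.2 RPM in DT mice. For both, PBS mouse 1 was the highest and the groups overlapped, with log2 fold changes of -0.04 ± 0.08 and -0.11 ± 0.08. Per kilobase of exon Cox4i2 had 22.4 RPM against 11.4 for Cox4i1, and Ndufa4l2 had 24.4 RPM against 5.49 for Ndufa4. Both isoforms are known from pericytes. The 7 pericyte markers had a median log2 fold change of -0.08 with 6 below zero, none passed, none was at zero, and their sum was 712 to 726 RPM in PBS and 688 to 710 RPM in DT mice. The part of pericytes in these values was not tested.

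Set against its counterpart in the same mouse, all 5 tested restricted isoforms had a lower mean with DT than with PBS. The log2 difference of Cox4i2 minus Cox4i1 was 0.05, 0.02 and 0.02 in PBS and -0.07, 0.00 and -0.03 in DT mice. For Ndufa4l2 minus Ndufa4 it was 1.80, 1.69 and 1.69 in PBS and 1.65 in each DT mouse. For Cox6b2, a testis form, minus Cox6b1 it was 0.08, -0.05 and -0.01 in PBS and -0.23, -0.12 and -0.15 in DT mice. Cox6b2 itself had 7.32, 6.77 and 6.6 RPM in PBS and 6.44, 6.8 and 6.42 RPM in DT mice, which overlapped. Its log2 fold change was -0.06 ± 0.11, and that of Cox6b1 was 0.11 ± 0.11, so this difference drew more on Cox6b1. The groups did not overlap in these 3 pairs, and the shifts of -0.06, -0.08 and -0.18 each had an exact permutation p of 0.1, the smallest that 3 against 3 mice allow (0.167 adjusted over the 5 pairs, 2-sided). Single genes did not overlap between groups in 14.4% of all genes tested, and the share over gene pairs was not computed. Without PBS mouse 1 the shift of Ndufa4l2 minus Ndufa4 was -0.04. For Cox7a1 minus Cox7a2 the shift was -0.48 (exact permutation p = 0.2, adjusted 0.25), and for Cox8b minus Cox8a it was -0.46 (exact permutation p = 0.3, adjusted 0.3). Without DT mouse 1 these shifts were -0.27 and -0.29, and without DT mouse 2 they were -0.69 and -0.71. In both, DT mouse 2 lay within the PBS range and DT mice 1 and 3 below it.

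Complex V was flat from head to base. All 5 genes of the F1 head, where ATP is made, were above zero, with a median log2 fold change of 0.02. Atp5a1, the alpha subunit, had 71.7, 67.5 and 66.5 RPM in PBS and 74.1, 67.1 and 67.4 RPM in DT mice. Atp5b, the catalytic beta subunit, had 60.6, 60.2 and 58.6 RPM in PBS and 63.2, 59.7 and 59.3 RPM in DT mice. Mouse 1 was the highest in each group and the groups overlapped, at 0.02 ± 0.06 and 0.02 ± 0.05. The 4 stalk genes had a median of 0.00, from Atp5h (-0.07 ± 0.10) to Atp5o (0.06 ± 0.08), which confers sensitivity to oligomycin. The 3 genes of the c ring, the proton-driven rotor, had a median of -0.02, Atp5g1 being lowest at -0.05 ± 0.08. Among the 3 small membrane subunits, Atp5k had 4.33, 3.94 and 3.77 RPM in PBS and 3.70, 3.56 and 3.21 RPM in DT mice. Its groups did not overlap, and its -0.16 ± 0.13 had an adjusted p of 0.775 by limma. Atp5a1 and Atp5d had the most RPM per kilobase of exon in the complex, 22.0 and 16.7.

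None of the 8 assembly factors passed the test. Their median log2 fold change was -0.05, with 7 below zero, some of them barely (Sdhaf2 rounds to 0.00), and the mean log2 level of the 8 had an SD of 0.0538 between mice of a group. Atp5sl (ENSMUSG00000057229, mm10 chromosome 7, 25619414 to 25625551) encodes the complex I assembly factor DMAC2 despite its ATP synthase symbol. It had 38.3, 37.5 and 34.4 RPM in PBS and 30.6, 30.9 and 29.5 RPM in DT mice. Every DT mouse lay below every PBS mouse, and the log2 fold change was -0.27 ± 0.06 with a 95% interval of -0.41 to -0.12. It was the only one of the 90 genes with an unadjusted p under 0.05, and its adjusted p of 0.240 by limma did not pass. Leaving out each mouse in turn gave -0.31 to -0.24. Ndufaf4, another complex I assembly factor, had 33.7, 30.1 and 29.8 RPM in PBS and 29.3, 28.6 and 27.7 RPM in DT mice, without overlap, at -0.12 ± 0.07 (adjusted p = 0.664, limma). Ndufaf1 and Ndufaf3 had -0.05 ± 0.09 and 0.01 ± 0.09, and the complex II factors Sdhaf1 and Sdhaf2 had -0.02 ± 0.08 and 0.00 ± 0.06. The median of the 8 depended on single mice: it was -0.11 with PBS mouse 2 left out and -0.01 with PBS mouse 1 left out. Without Atp5sl, a choice made after seeing the data, it was -0.04.

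Of the 2 genes that share only the symbol, Cox4nb had the highest RPM of the 91 genes by mean, with 79.8, 80.5 and 72.5 RPM in PBS and 76.0, 78.5 and 81.5 RPM in DT mice (0.02 ± 0.05). The pseudogene Atp5l-ps1 had 0.531 to 1.22 RPM over the 6 mice (-0.18 ± 0.17), and whether its reads came from Atp5l could not be told from the deposited values. Atp5l itself had 0.04 ± 0.11.

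Other genes of the pathway gave no call either. None of the tested assembly factors outside the symbol rule passed, 8 for complex I (3 above zero), 6 for complex III (3), 18 for complex IV (5) and 5 for complex V (4). The complex IV factors had a median log2 fold change of -0.05, and Sco2, a copper chaperone, had 26, 23.8 and 21 RPM in PBS and 21.3, 22.4 and 19.6 RPM in DT mice (-0.15 ± 0.10). Electron carriers and ubiquinone synthesis genes, 17 tested, had 7 above zero and none past the threshold. The citric acid cycle and pyruvate dehydrogenase list, 18 tested, had 9 above zero and none past it. Its largest value was Pcx, pyruvate carboxylase, with 71.0, 88.3 and 83.5 RPM in PBS and 101, 94.9 and 89.9 RPM in DT mice. No DT mouse fell into the PBS range, and the log2 fold change was 0.24 ± 0.08 (adjusted p = 0.450, limma).

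Regulators of mitochondrial biogenesis, 17 tested, had 6 above zero and none past the threshold. Ppargc1a, the coactivator of respiratory chain genes, had 20.7, 19.9 and 22.1 RPM in PBS and 17.8, 34.3 and 23.2 RPM in DT mice (0.21 ± 0.20), with DT mouse 2 the highest. Genes of the hypoxic switch to glycolysis, 17 tested, had 10 above zero and none past it. Pdk4, which blocks pyruvate dehydrogenase, had 26.0, 25.6 and 29.6 RPM in PBS and 24.2, 42.3 and 37.1 RPM in DT mice (0.31 ± 0.18). Hk2, a hexokinase, had 54.8, 65.0 and 71.5 RPM in PBS and 76.3, 73.7 and 67.1 RPM in DT mice (0.19 ± 0.09). Beta-oxidation genes, 15 tested, had 5 above zero and none past it. Cpt1b, the muscle form of the fatty acid importer, had 13.3, 14.4 and 17.7 RPM in PBS and 6.74, 15.5 and 7.67 RPM in DT mice, low in the same mice as Cox7a1 (-0.63 ± 0.27). Mitochondrial ribosomal protein genes had 20 of 78 above zero, a median of -0.02 and none past the threshold.

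The deposited levels of these genes tracked exonic length, which limits what a level can be read as. Across the 90 genes, Pearson's r between log2 mean RPM and log2 exonic length was 0.683, a description over genes that share libraries, against 0.512 over 16471 genes with a length. Sftpc, the surfactant protein gene of alveolar type 2 cells, had 8.12 to 9.30 RPM, fewer than Cox4i1. Actb had 23.5 to 27.7 RPM. Reads per exonic base had a median of 0.165 and a maximum of 0.48 over the 90 genes. Over all genes the 99th percentile was 0.583, and 3 genes exceeded 1. Scatter between mice of a group was small as well. Its variance, over that expected from counting reads, had a median of 0.719 over the 90 genes and lay under 1 in 60 (66.7%), against a median of 2.51 and 18.5% of all genes. A ratio under 1 means less scatter than independent reads give on average, and a single gene can fall under 1 by sampling alone. The median and share that independent reads would give with this number of mice were not computed. Whether the deposited values follow RNA abundance in proportion was not tested, so a level per length here is a read density and the fold changes are those of the deposited values.

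**Figure D5:**
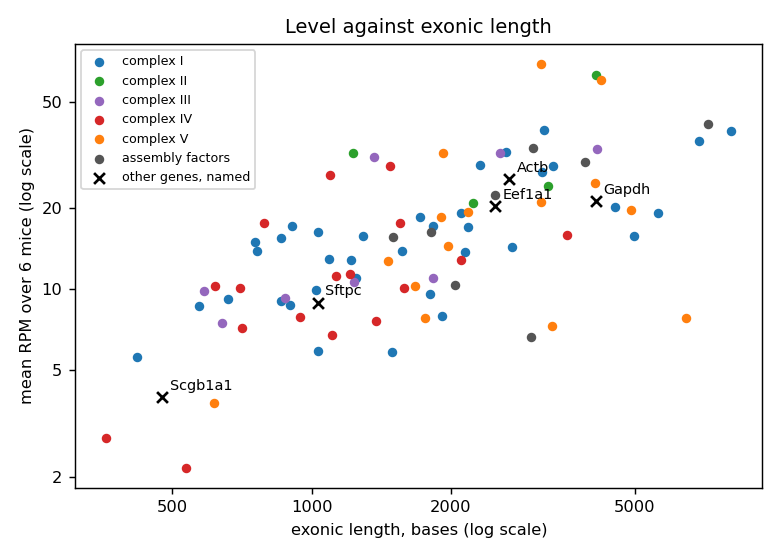
Mean RPM over the 6 mice (y axis, log scale) against exonic length in bases (x axis, log scale) for the tested subunits and assembly factors, coloured by complex, with Sftpc, Scgb1a1, Actb, Gapdh and Eef1a1 as crosses. Levels rise with length, and the 5 named genes lie among the respiratory chain genes.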

How the data were processed

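Bulk polyadenylated RNA of 6 whole lungs was sequenced, 3 PBS and 3 DT, grouped by the sample titles. Per the labels' protocols, tissue was dispersed by sonication and RNA was extracted with a Qiagen kit. FastQC, Trimmomatic and the build mm10 stand in the submitters' processing notes, with no versions. Neither aligner nor counter nor strand setting is given in the sources used here, so reads of overlapping or antisense genes cannot be told apart. Replicates are numbered in their titles and were taken as separate mice, which the titles do not state.

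The deposited values are log2 reads per gene, scaled to reads-per-million (RPM) by the authors. Back on the linear scale, 100% of values above the lowest were whole reads at a tolerance of 0.1%, and the lowest stood for 0.9 of a read in genes with no read. Depth per library is given with the results. Genes were tested where 3 libraries reached 0.538 RPM (10 reads at median depth) and the total reached 15 reads.

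DT was compared with PBS on log2(RPM + 1) by limma (version 3.58.1, R 4.3.3) with its trend option, 2-sided, with Benjamini-Hochberg adjustment over 16708 genes and a threshold of 0.05. The pseudocount of 1 understates fold changes of low genes. The count model planned for raw counts was not used, since the unit is log2. The script was tested on simulated data. Isoform pairs were compared by an exact permutation test (SciPy 1.17.1). Exonic lengths came from GENCODE M21, which held all 91 genes at their mm10 position, and promoters from RefSeq on GRCm38.p6. The members and lists were chosen with earlier results of these data known. Named genes are the isoform pairs, the catalytic subunits, the extremes of each complex at a mean of at least 10 RPM or per kilobase, those at the detection limit and the largest of other lists. Atp5k, Uqcrc2, Sdhaf1, Sco2, Atp5l, Xcr1, Zbtb46, Actc1, Sftpc, Actb and the symbol-only genes were added after their values were seen. The dendritic cell markers were listed after the data were seen. Scaling, filter, pseudocount, limma-voom, a replicate block and leaving out each mouse were tried as alternatives.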

Additional observations from a re-analysis of the deposited data

How the results depend on the processing

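No respiratory chain gene was called under any alternative run (scaling, filter, pseudocount, deposited log2 values, limma-voom, replicate block, each mouse left out). Over all genes, the 47 calls became 36 to 47 under those other than the block and the mice left out, 8 with the replicate block, and 0 to 141 with a mouse left out (0 without DT mouse 1, 14 without DT mouse 3, 141 without DT mouse 2). Leaving out mice gave medians of -0.03 to 0.03 for complex I, -0.02 to 0.06 for complex II, -0.02 to 0.04 for complex III, -0.05 to 0.02 for complex IV, -0.01 to 0.05 for complex V and -0.11 to -0.01 for the assembly factors. The sign of values near zero turned when a mouse was left out: Atp5a1 ranged from -0.03 to 0.05, Atp5b from -0.01 to 0.04, Atp5d from -0.01 to 0.07, Cox4i1 from -0.03 to 0.06, Cox5a from -0.02 to 0.04, Cox7a2 from -0.02 to 0.05, Ndufa4 from -0.05 to 0.01, Ndufaf1 from -0.10 to 0.01, Ndufaf3 from -0.04 to 0.05, Ndufs1 from -0.01 to 0.04, Ndufv1 from -0.03 to 0.05, Sdha from -0.02 to 0.06, Sdhd from -0.01 to 0.06, Uqcr10 from -0.03 to 0.05, Uqcrc1 from -0.02 to 0.04 and Uqcrh from -0.07 to 0.01. The cause of these changes was not tested. Deviations of same-numbered mice correlated at 0.0845, 0.268 and -0.0996, and those of mice with different numbers at -0.256 to 0.142. The complex sums were highest in mouse 1 of both groups, so these weak correlations do not settle whether the numbers pair the mice. Under the replicate block no isoform pair could fall below an exact permutation p of 0.25, and the block leaves the shifts as they are by construction. Leaving out each mouse gave shifts of -0.08 to -0.04 for Cox4i2, -0.10 to -0.04 for Ndufa4l2, -0.69 to -0.27 for Cox7a1, -0.71 to -0.29 for Cox8b and -0.20 to -0.14 for Cox6b2, each against its counterpart. Cox7a1 was lower on scales with a smaller pseudocount, at -0.73 on the deposited values against -0.47, with adjusted p of 0.529 to 0.616 by limma over the alternatives other than left-out mice. Cox7a1 and Cox8b had a variance within groups of 3.54 and 2.92 times that expected from counting reads, with DT mouse 2 apart from DT mice 1 and 3. By this ratio Cox4nb (3.25) and Atp5a1 (3.03) lay above Cox8b.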
